A study of Mus musculus with 16 samples.

Results

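Chromatin accessibility in mouse embryonic stem (ES) cells carrying a degron on either of 2 subunits of the ATAC complex was compared with that in wild-type (WT) cells. The comparison used the 8 libraries of the lines AID-Zzz3 and AID-Yeats2 (4 each), weighted equally by line, and the 4 WT libraries, 12 of the 16 libraries of the series. The other 4 libraries came from Supt7l KO cells, which lack a subunit of the SAGA complex, and are used only where they are named. ATAC-seq cuts and tags open DNA with the transposase Tn5, so the count in a peak measures how accessible that region was. All cells were E14 ES cells grown on gelatine in serum with LIF (1500 U/ml), CHIR99021 (3 µM) and PD0325901 (1 µM), and all of them, WT included, received auxin for 24 h. An auxin-inducible degron (AID) is a tag through which auxin sends a protein to degradation, and the protein levels of ZZZ3 and YEATS2 were not measured in these files. For each library 100000 cells were tagged with 25 nM Tn5, amplified over 14 PCR cycles and sequenced as paired reads of 100 bp. Independent clones and separate days are mentioned for the series, but the labels assign no clone or day to a library. The p-values below therefore measure the spread between these libraries, of which several may come from 1 clone.

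ATAC is a coactivator complex with histone acetyltransferase activity that is found at gene promoters and at some enhancers. ZZZ3 carries a ZZ domain that binds the tail of histone H3, YEATS2 carries a YEATS domain that recognises acylated lysines on H3, and both anchor the complex to chromatin. ATAC shares the acetyltransferase KAT2A and the adaptor TADA3 with SAGA, a related coactivator. In human cancer cells ZZZ3 and YEATS2 are known to bind promoters of housekeeping genes, among them those for ribosomal proteins, and to sustain acetylation of histone H3 there.

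The sequences of 6 promoters described further on are shown. Promoters of Rpl10a, Gga1, Hexa and Zcchc8 were less accessible in the AID lines, and those of Ano3 and Cd80 more accessible. Each is the RefSeq window from 250 bases before to 50 bases after a TSS in GRCm38.p6, the build named mm10 in the files. Capitals mark matches on either strand to any of 12 motifs. These were the GC box of SP and KLF factors (GGGCGG), the CCAAT box (CCAAT), ETS (CCGGAAG), NRF1 (GCGCATGC), YY1 (AAGATGG), CREB/ATF (TGACGTCA), the TATA box (TATAAA), the OCT4 octamer (ATGCAAAT), SOX (CATTGT), ESRRB (CAAGGTCA), AP-1 (TGANTCA) and TEAD (GGAATG). No base in these windows belongs to 2 matches.
Rpl10a, chr17:28328221-28328520, + strand: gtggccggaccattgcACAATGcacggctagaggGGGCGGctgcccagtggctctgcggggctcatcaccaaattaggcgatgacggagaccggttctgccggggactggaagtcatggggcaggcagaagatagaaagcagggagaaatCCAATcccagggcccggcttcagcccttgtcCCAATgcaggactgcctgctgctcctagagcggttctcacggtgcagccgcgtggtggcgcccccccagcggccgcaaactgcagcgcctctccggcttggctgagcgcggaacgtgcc
Gga1, chr15:78876940-78877239, + strand: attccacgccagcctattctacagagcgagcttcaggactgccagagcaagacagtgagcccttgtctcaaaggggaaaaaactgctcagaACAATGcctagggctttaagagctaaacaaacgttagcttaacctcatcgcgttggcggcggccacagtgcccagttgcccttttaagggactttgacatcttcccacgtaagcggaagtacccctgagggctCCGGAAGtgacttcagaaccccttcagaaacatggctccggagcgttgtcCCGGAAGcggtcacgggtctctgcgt
Hexa, chr9:59539290-59539589, + strand: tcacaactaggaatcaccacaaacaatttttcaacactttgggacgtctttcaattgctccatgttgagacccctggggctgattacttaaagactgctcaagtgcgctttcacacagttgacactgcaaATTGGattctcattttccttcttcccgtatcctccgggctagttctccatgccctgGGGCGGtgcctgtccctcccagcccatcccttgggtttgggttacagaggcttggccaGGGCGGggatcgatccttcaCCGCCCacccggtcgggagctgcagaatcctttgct
Zcchc8, chr5:123720995-123721294, - strand: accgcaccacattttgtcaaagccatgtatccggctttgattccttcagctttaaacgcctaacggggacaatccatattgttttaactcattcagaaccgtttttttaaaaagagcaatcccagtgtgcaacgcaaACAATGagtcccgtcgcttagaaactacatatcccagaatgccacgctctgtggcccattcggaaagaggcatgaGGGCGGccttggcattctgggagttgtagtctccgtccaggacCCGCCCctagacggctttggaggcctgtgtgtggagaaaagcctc
Ano3, chr2:110950195-110950494, - strand: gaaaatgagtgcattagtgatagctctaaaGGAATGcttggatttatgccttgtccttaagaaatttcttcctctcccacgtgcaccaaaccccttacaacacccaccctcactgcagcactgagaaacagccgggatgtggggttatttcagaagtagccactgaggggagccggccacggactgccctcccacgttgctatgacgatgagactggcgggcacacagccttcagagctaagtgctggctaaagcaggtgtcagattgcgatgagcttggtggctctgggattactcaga
Cd80, chr16:38458683-38458982, + strand: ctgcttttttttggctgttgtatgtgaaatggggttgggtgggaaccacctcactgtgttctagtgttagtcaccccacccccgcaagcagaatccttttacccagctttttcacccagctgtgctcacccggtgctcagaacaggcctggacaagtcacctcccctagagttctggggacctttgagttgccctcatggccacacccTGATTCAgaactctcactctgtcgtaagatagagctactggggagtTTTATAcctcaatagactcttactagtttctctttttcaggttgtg
The GC box occurs 1 time in the Rpl10a window, 3 times in that of Hexa and 2 times in that of Zcchc8. The CCAAT box occurs 2 times in Rpl10a and 1 time in Hexa, and the SOX motif 1 time each in Rpl10a, Gga1 and Zcchc8. The Gga1 window holds 2 ETS matches, the Ano3 window 1 TEAD match, and the Cd80 window 1 TATA box and 1 AP-1 match. The Ano3 and Cd80 windows hold 8 and 3 CpG dinucleotides, and there are 21 in Rpl10a, 16 in Gga1, 14 in Zcchc8 and 10 in Hexa. These counts were not set against those of all windows, and 6 chosen windows do not compare gained with lost promoters. Of 9043 matched promoter windows, 67.1% hold the GC box, 39.4% the CCAAT box, 17.1% the ETS motif, 11.8% the TEAD motif, 6.51% the TATA box, 6.85% the SOX motif and 4.47% the AP-1 motif. The motifs with no match in the 6 windows are held by 5.52% (NRF1), 6.85% (YY1), 3.27% (CREB/ATF), 1.45% (OCT4 octamer) and 0.962% (ESRRB). These windows covered 58.2% of the 15546 genes with a promoter peak, too few for a check of sequence composition between called and other promoters, which is therefore void.

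The libraries held 2492045 to 4775965 counts in peaks in the 8 AID libraries, against 4251953 to 5540559 in the 4 WT libraries. Of 70150 peaks, 69481 passed the filter on low counts and were tested. Promoters of the ES cell markers, among them Pou5f1, Sox2 and Nanog, were open in every library, with summed levels of 250.5 to 282 CPM (counts scaled to library size) in AID libraries and 250.04 to 287 CPM in WT libraries. None of these 9 promoters was called different, and neither was any marker promoter of primitive endoderm, trophoblast, fibroblast, neuroectoderm or mesendoderm. The fibroblast promoters (4 of 9 markers had a promoter peak) summed to 39.3 to 56.3 CPM in AID libraries and 36.9 to 43.7 CPM in WT libraries. Those of primitive endoderm (4 of 6) summed to 184 to 223 CPM and 177 to 211 CPM. In both the AID range reached higher, which it did not in trophoblast, neuroectoderm or mesendoderm. Among the fibroblast markers Col1a2 had a log2 change of 0.41 and Pdgfrb one of -0.35. The part of other cells in the results was not tested.

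The WT libraries did not form 1 uniform group, and this touches many of the results. On chromosome 14 from 60 Mb to its end (1583 peaks) the median level was set against that of all other peaks, each relative to the WT mean of the peak. This difference was -0.22 to -0.14 in the AID libraries on the log2 scale. It was 0.20 and 0.27 in WT replicates 1 and 4, and -0.25 and -0.21 in WT replicates 2 and 3. On chromosome 17 from 70 Mb (736 peaks) it was 0.27 to 0.34 in the AID libraries, -0.28 and -0.26 in WT replicates 1 and 4, and 0.26 and 0.30 in WT replicates 2 and 3. In both segments WT replicates 2 and 3 thus lay with the AID libraries, and WT replicates 1 and 4 stood apart from them. Against Supt7l KO, with no WT library in the comparison, the median log2 change of the AID lines was -0.49 on the segment of chromosome 14 and 0.90 on that of chromosome 17. Among the peaks of the chromosome 17 segment 75 were higher and 0 lower in the AID lines against all WT libraries. Both segments together hold 254 of the peaks called against WT, or 10.1%. Of the peaks in the chromosome 17 segment 10.2% were called higher, and of those in the chromosome 14 segment 10.9% were called lower. Over all tested peaks these shares were 2.04% and 1.57%. Results are therefore given with all 4 WT libraries and, where they rest on them, with WT replicates 2 and 3 alone.

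**Figure D1:**
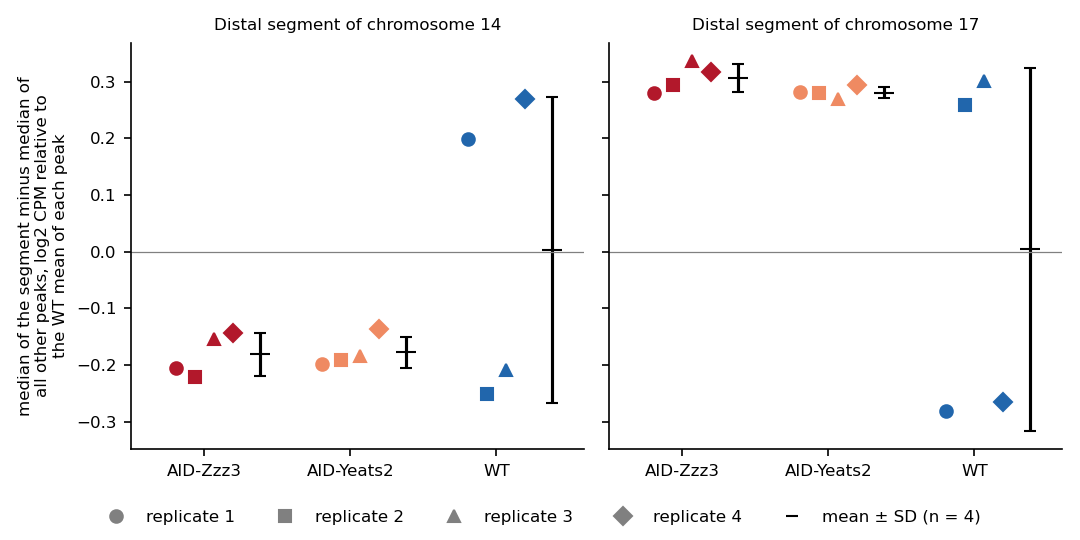
Level of 2 chromosome segments in each library. Points are libraries (marker shape gives the replicate number), the y axis is the median log2 CPM of the segment's peaks minus that of all other peaks, relative to the WT mean of each peak, and bars give mean ± SD of 4 libraries. WT replicates 1 and 4 sit at 0.20 and 0.27 on chromosome 14 and at -0.28 and -0.26 on chromosome 17, apart from the AID libraries and from WT replicates 2 and 3.

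In the pooled comparison 1418 peaks were more accessible in the AID lines (2.04% of those tested) and 1093 were less accessible (1.57%), by edgeR's quasi-likelihood test at a Benjamini-Hochberg adjusted p under 0.05. Among called peaks the median log2 change was 0.80 for the higher and -0.48 for the lower ones. Their median levels also differed, at 3.50 log2 CPM for the higher and 4.85 log2 CPM for the lower peaks. The sizes of gains and losses were not compared at like levels. More than 2-fold changes were found at 329 of the higher and 28 of the lower peaks. In 554 of the higher and 341 of the lower peaks all 8 AID libraries lay on 1 side of all 4 WT libraries, which held for 1.27% (above) and 0.973% (below) of all tested peaks. Scaling by TMM put the median change of all peaks near 0, and the split between gains and losses depends on it. It was 1418 to 1093 under TMM, 1711 to 834 with library totals, 1336 to 622 with loess offsets and 1083 to 2302 with TMM factors from non-promoter peaks alone. With WT replicates 2 and 3 as the only WT libraries 167 peaks were called higher and 52 lower, and with WT replicates 1 and 4 alone 1049 and 772. Leaving out WT replicate 4 gave 572 and 252 calls, leaving out WT replicate 1 gave 669 and 414, and leaving out AID-Yeats2 replicate 2 gave 955 and 625.

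No peak passed the test of 1 AID line against the other. In the same fit AID-Zzz3 had 840 peaks higher (1.21%) and 461 lower (0.663%) than WT, and AID-Yeats2 had 777 higher (1.12%) and 458 lower (0.659%), and both sets of counts rest on the same WT libraries. AID-Yeats2 against AID-Zzz3 gave 0 calls in edgeR and in DESeq2 (smallest edgeR adjusted p = 0.194). At an unadjusted p under 0.05 that test gave 2089 higher and 2107 lower peaks in edgeR and 3208 peaks in DESeq2. The comparison was defined with a term for 2 sets of libraries, replicates 1 and 2 against replicates 3 and 4. Deviations of libraries of the same set, but of different groups and numbers, were weakly correlated (0.0235 to 0.103). The change against WT gave 0 calls for a difference between the sets in edgeR and in DESeq2 (smallest edgeR adjusted p = 1.00, 1333 and 1567 peaks at an unadjusted edgeR p under 0.05, 1325 in DESeq2).

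Accessibility fell at promoters relative to the rest of the genome in the AID lines. Promoters are here the 18810 tested peaks at most 1000 bp from a transcription start site (TSS). Each library's log2 level at a peak was taken relative to the WT mean of that peak, which holds the WT values near 0. The median of these values at promoters minus that at all other peaks was -0.14, -0.07, -0.19 and -0.21 in AID-Zzz3 replicates 1 to 4. In AID-Yeats2 it was -0.15, -0.17, -0.17 and -0.16, and in WT it was 0.01, -0.02, -0.04 and 0.03, all on the log2 scale. Every AID library lay below every WT library. The means were -0.158 ± 0.0405 in the AID libraries (SD, n = 8) and -0.00515 ± 0.0312 in WT (SD, n = 4), a difference of -0.153 (two-sided exact permutation p = 0.00202, the smallest that 495 arrangements allow). With labels exchanged only within replicates 1 and 2 and within 3 and 4 the exact permutation p was 0.00444, again the smallest possible. These permutations moved labels without redoing the centring on WT. Centred on the mean of all 12 libraries instead, the difference was -0.148 (exact permutation p = 0.00202). Taken by set, replicates 1 and 2 gave a difference of -0.124, and replicates 3 and 4 one of -0.183. Against WT replicates 2 and 3 alone it was -0.128 (exact permutation p = 0.0222, the smallest of 45 arrangements). The deepest AID library, AID-Yeats2 replicate 2 with 4775965 counts, was deeper than WT replicates 2 and 4 and had a value of -0.17. The next deepest, AID-Zzz3 replicate 2 with 4125944 counts, had the smallest shift of the AID libraries, -0.07. Every AID library except AID-Yeats2 replicate 2 was shallower than every WT library, and the part of depth in this shift was not tested. Less access in every cell and access in fewer cells cannot be told apart in these bulk libraries.

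**Figure D2:**
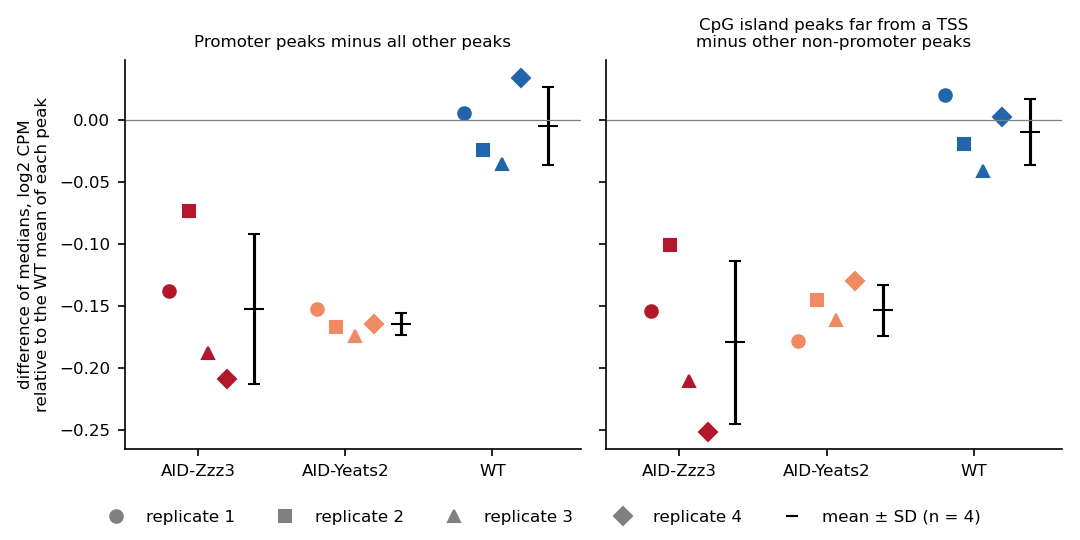
Accessibility of promoters and of distal CpG islands in each library. The y axis is the difference of medians in log2 CPM relative to the WT mean of each peak: promoter peaks minus all other peaks (left) and CpG island peaks over 3000 bp from a TSS minus other non-promoter peaks (right). Points are libraries and bars give mean ± SD of 4. All 8 AID libraries lie below all 4 WT libraries in both panels.

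Among promoter peaks 199 were called higher (1.06%) and 753 lower (4%). Away from promoters the order was the opposite, with 1219 peaks higher and 340 lower of 50671. These counts were 491 and 74 without WT replicate 4, 570 and 106 without WT replicate 1, and 142 and 16 with WT replicates 2 and 3 alone. Without AID-Yeats2 replicate 2 the lower ones numbered 205, and with TMM factors from non-promoter peaks the counts were 946 and 725. The promoter counts also rest on few libraries: they were 81 and 178 without WT replicate 4, 99 and 308 without WT replicate 1, and 25 and 36 with WT replicates 2 and 3 alone. Without WT replicate 3, AID-Yeats2 replicate 2 or AID-Zzz3 replicate 4 the lower promoters numbered 451, 420 and 469, and without AID-Zzz3 replicate 3 the higher ones numbered 129. The median log2 change was -0.14 within 100 bp (46 higher and 397 lower of 7538 peaks), -0.10 from there to 500 bp and -0.03 at 501 to 1000 bp. It was -0.01 at 1001 to 3000 bp, 0.01 at 3001 to 10000 bp and 0.06 at 10001 to 50000 bp. At 50001 to 100000 bp it was 0.13 (179 higher and 18 lower of 4417), and beyond 100000 bp it was 0.23 (121 higher and 3 lower of 2077). With TMM factors from non-promoter peaks the medians were -0.20 within 100 bp and 0.17 beyond 100000 bp, and all non-promoter peaks had a median of -0.01 in place of 0.05. With WT replicates 2 and 3 alone they were -0.12 within 100 bp and 0.19 beyond 100000 bp. In the AID lines against Supt7l KO, a comparison without WT libraries, 9.55% of peaks were higher and 10.3% lower, and the median log2 change was -0.25 within 100 bp and 0.34 beyond 100000 bp. Supt7l KO itself differed from WT, with 0.593% higher and 1.1% lower peaks, and its part in these medians was not tested. At the 7 tested peaks of chromosome Y the median log2 change of the AID lines was 6.96 against Supt7l KO and 0.27 against WT.

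**Figure D3:**
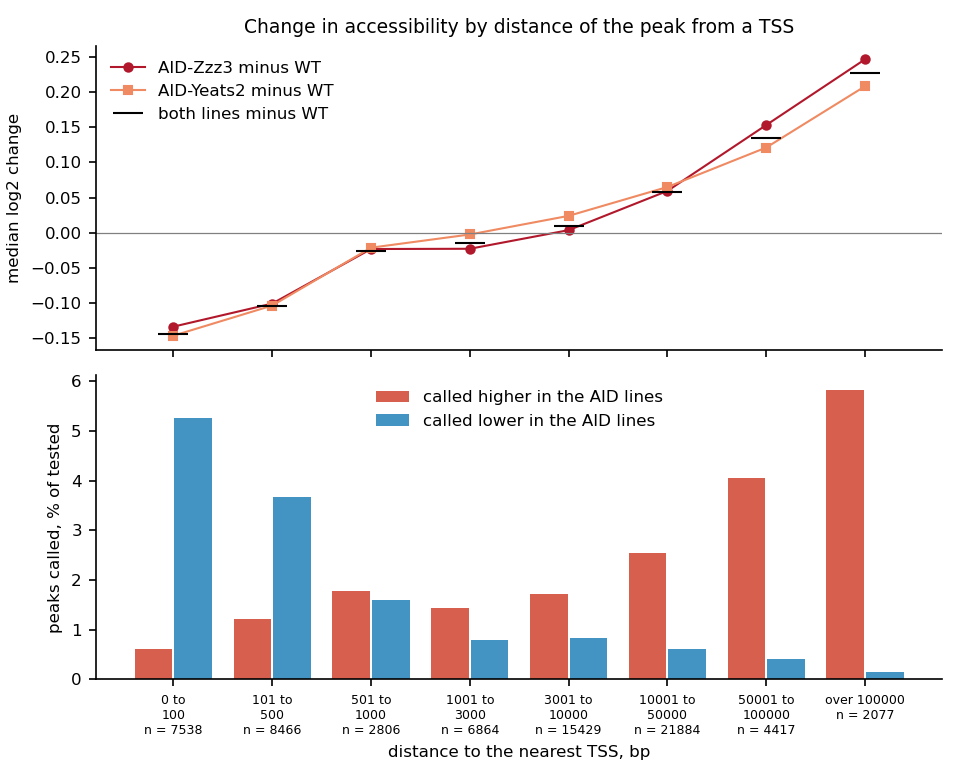
Change in accessibility by distance from the nearest TSS. The upper panel gives the median log2 change against WT for AID-Zzz3, AID-Yeats2 and both together; the lower panel gives the percentage of tested peaks called higher and lower in both lines together. The medians run from -0.14 within 100 bp to 0.23 beyond 100000 bp.

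Promoters in the top quartile of all peaks by mean level had a median log2 change of -0.14 (98 higher and 633 lower of 10096), against -0.01 for non-promoter peaks of the same quartile. In the lowest quartile the medians were -0.01 for promoters and 0.07 for non-promoter peaks. Promoters of protein-coding genes had a median of -0.12 (133 higher and 696 lower of 15615). Those of processed pseudogenes, which are retrotransposed gene copies, had a median of 0.15 (19 higher and 1 lower of 452), although reads from near-identical copies make these counts uncertain. Among peaks in CpG islands over 3000 bp from any TSS 0 were higher and 11 lower of 339 (median -0.11). The count of 11 was 5 without WT replicate 1 or WT replicate 4, 6 without AID-Zzz3 replicate 3 or AID-Zzz3 replicate 4, and 1 with WT replicates 2 and 3 alone, at a median of -0.11. Their level relative to the WT mean of each peak, minus that of other non-promoter peaks, averaged -0.166 ± 0.0471 in AID libraries (SD, n = 8). It averaged -0.00977 ± 0.0264 in WT libraries (SD, n = 4), a difference of -0.157 (two-sided exact permutation p = 0.00202, again the smallest possible). The permutations kept this centring on WT, and centring on all 12 libraries was not tried for these peaks.

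LINE-1 and LTR elements away from promoters held a larger share of gains than peaks without a repeat. LINE-1 elements, autonomous retrotransposons that ES cells hold mostly silent, had a median log2 change of 0.23, with 127 peaks higher and 5 lower of 1839 (6.91% and 0.272%). Their level minus that of all other peaks, each relative to the WT mean of the peak, was 0.14 to 0.32 in AID libraries. It was -0.03 to 0.05 in WT libraries, with no overlap. The ERVK class of endogenous retroviruses had a median of 0.12 (208 higher and 16 lower of 4719) and ERV1 a median of 0.13 (42 higher and 4 lower of 696). SINE B2 elements had a median of 0.10 with 11 higher and 1 lower of 1964. Their peaks were weak and narrow, with medians of 2.15 log2 CPM and 237 bp, against 2.99 log2 CPM and 609 bp for LINE-1. SINE peaks whose family is labelled Alu in the annotation had a median change of 0.01. Peaks with no repeat or CpG island annotation had a median of 0.03 (674 higher and 256 lower of 34683). At like distances the medians also differed: between 1001 and 10000 bp from a TSS the median was 0.13 at LINE-1 and -0.01 at peaks with no repeat, and beyond 100000 bp it was 0.42 and 0.19. Among 73 named repeats with at least 50 peaks, RLTR23 had 13 of 55 peaks higher, RMER13B 11 of 66, and the young LINE-1 family L1Md_T 18 of 111 with a median of 0.50. None of these 3 had a lower peak. With WT replicates 2 and 3 alone 6 LINE-1 and 20 ERVK peaks were called higher, at medians of 0.20 and 0.10. Without WT replicate 4 the higher LINE-1 and ERVK peaks numbered 41 and 81, without WT replicate 1 49 and 81, without AID-Zzz3 replicate 3 73 and 138, and without AID-Yeats2 replicate 2 77 and 136. Counts in repeats depend on how the authors placed reads that match several copies, which is not given in the sources used here.

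The gains first described lay away from promoters, in introns and between genes, and had the largest log2 changes among called non-promoter peaks that were above the median level and showed no overlap of AID and WT libraries. The peak nearest to Fam160a1, a gene for an adaptor of the hook-interacting protein family, lies in an intron 35543 bp from a TSS (chr3:85637861-85639030). It had 18.2, 12.7, 23.6 and 21.7 CPM in AID-Zzz3 and 25.6, 18.7, 15.4 and 15.0 CPM in AID-Yeats2, against 8.08, 4.21, 8.53 and 4.83 CPM in WT. Every AID library was above every WT library, and the log2 change was 1.51 ± 0.20 (SE, edgeR adjusted p = 3.2e-07). Against Supt7l KO, which had 5.82 ± 1.02 CPM (SD, n = 4), it was 1.65 (adjusted p = 3.7e-09). An intronic peak of Kif16b (chr2:142638089-142639381), which encodes a kinesin that moves endosomes, had 16.8, 16.8, 20.5 and 24.2 CPM in AID-Zzz3 and 12.8, 22.0, 19.4 and 23.8 CPM in AID-Yeats2, against 6.95, 6.54, 9.62 and 10.9 CPM in WT. The groups did not overlap, and the log2 change was 1.22 ± 0.18 (edgeR adjusted p = 2.61e-06).

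An intronic peak of Ice1 (chr13:70586672-70587286), a subunit of the little elongation complex at small nuclear RNA genes, had 14.5, 10.0, 15.6 and 17.4 CPM in AID-Zzz3 and 12.4, 12.9, 13.2 and 12.3 CPM in AID-Yeats2, against 5.82, 4.44, 6.36 and 6.28 CPM in WT (log2 change 1.23 ± 0.21, edgeR adjusted p = 6.55e-05). Ttc7b, part of a complex that brings a lipid kinase to the plasma membrane, had 19.8, 10.5, 11.7 and 10.6 CPM in AID-Zzz3 and 16.4, 16.2, 14.2 and 16.2 CPM in AID-Yeats2, against 8.27, 6.07, 6.36 and 4.59 CPM in WT at the intronic peak chr12:100506937-100507935 (log2 change 1.16 ± 0.20, edgeR adjusted p = 0.000133). At both peaks the AID libraries lay above all WT libraries, as the rule of choice required. The other peaks chosen by the same rule were those of Smc6, a subunit of a DNA repair complex (1.24), Utp20, a factor of ribosome biogenesis (1.16), Nanos1, an RNA-binding translational repressor (1.15), and Unc80, part of a sodium leak channel (1.14). The Smc6 peak lies in a LINE-1 element. All 8 kept their call when any 1 library was left out. With WT replicates 2 and 3 alone Fam160a1, Ice1, Kif16b, Ttc7b and Unc80 kept it (edgeR adjusted p = 0.000355 to 0.0474), and Smc6, Utp20 and Nanos1 had log2 changes of 0.95, 0.98 and 0.77 (edgeR adjusted p = 0.0896, 0.0547 and 0.122).

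Gains at promoters reached a log2 change of 1.91, with a median of 0.64 among the 199 called, against 0.81 among the 1219 called away from promoters. The median levels of these called peaks also differed, at 4.18 log2 CPM at promoters and 3.44 log2 CPM away from them. Chosen by the same rule, the promoter peak of Ano3 (chr2:110949671-110950647), which encodes a membrane protein of the anoctamin family, had 41.3, 31.5, 39.0 and 45.7 CPM in AID-Zzz3 and 37.6, 39.4, 36.1 and 40.9 CPM in AID-Yeats2, against 20.3, 24.3, 19.6 and 24.6 CPM in WT. The groups were apart, with a log2 change of 0.82 ± 0.12 (edgeR adjusted p = 4.79e-06), and against Supt7l KO (28.5 ± 3.37 CPM) it was 0.44 (adjusted p = 0.0051). Gria3, a subunit of AMPA glutamate receptors, had 14.5 to 22.2 CPM in the AID libraries (median 19.7) and 7.52 to 13.4 CPM in WT (log2 change 0.93 ± 0.17, edgeR adjusted p = 0.000343). Cd80, a ligand that costimulates T cells, had 11.4 to 19.5 CPM in AID libraries (median 13.7) and 4.54 to 9.35 CPM in WT (log2 change 0.92 ± 0.20, edgeR adjusted p = 0.00305). Further promoters of the rule were those of Ftmt, a mitochondrial ferritin (0.99), Vwde (0.84), Snx20, a sorting nexin (0.77), and Zim1, an imprinted zinc finger gene (0.76). Zim1 lost its call without WT replicate 1 (edgeR adjusted p = 0.0725) and Cd80 without WT replicate 3 (edgeR adjusted p = 0.0533). Ano3 and Cd80 kept the call with WT replicates 2 and 3 alone (edgeR adjusted p = 0.0021 and 0.0473). Gria3, Ftmt, Vwde, Snx20 and Zim1 had log2 changes of 0.70, 0.86, 0.68, 0.69 and 0.64 there. They were not called (edgeR adjusted p = 0.0961 to 0.24).

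Among promoters that lost access, that of Gga1 (chr15:78876851-78877839), an adaptor for transport from the Golgi, had 12.8, 10.7, 15.1 and 11.4 CPM in AID-Zzz3 and 13.2, 13.9, 12.2 and 14.4 CPM in AID-Yeats2, against 23.5, 18.9, 25.8 and 24.4 CPM in WT. All AID libraries were below all WT libraries, as the same rule of choice required. The log2 change was -0.84 ± 0.15 (edgeR adjusted p = 0.000247). Tmprss12, a serine protease gene, had 5.36 to 9.62 CPM in AID libraries (median 8.18) and 12.7 to 15.7 CPM in WT (log2 change -0.85 ± 0.19, edgeR adjusted p = 0.00429). Tfdp1, the dimer partner of the E2F cell cycle factors, had 7.40 to 13.6 CPM in AID libraries (median 9.94) and 15.8 to 21.0 CPM in WT (-0.79 ± 0.17). With WT replicates 2 and 3 alone Gga1 kept its call (log2 change -0.79, edgeR adjusted p = 0.0478). Tmprss12 and Tfdp1 had log2 changes of -0.74 and -0.82 there and were not called (edgeR adjusted p = 0.194 and 0.071). Rpl10a is described with the ribosomal proteins.

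Akap11, an anchor of protein kinase A, and Lacc1, an enzyme of purine metabolism in macrophages, lie in the segment of chromosome 14, whose median log2 change was -0.19 (7 higher and 172 lower of 1583 peaks). Akap11 (chr14:78536256-78537603) had 30.9, 28.8, 23.9 and 22.7 CPM in AID-Zzz3 and 20.0, 29.0, 21.4 and 31.9 CPM in AID-Yeats2, against 48.1, 42.8, 40.9 and 52.1 CPM in WT. The groups did not overlap, as the rule of choice required. The log2 change was -0.81 ± 0.12 with all WT libraries (edgeR adjusted p = 1.6e-06) and -0.68 with WT replicates 2 and 3 alone (edgeR adjusted p = 0.0162). Lacc1 changed by -0.83 and by -0.81 with WT replicates 2 and 3 alone (edgeR adjusted p = 0.0497). At 4 other named peaks of this segment the change was much smaller against WT replicates 2 and 3. Klf5, a factor of naive pluripotency, had 46.4 to 61.0 CPM at its promoter in the AID libraries, against 78.7, 58.6, 73.4 and 113 CPM in WT replicates 1 to 4. Its log2 change of -0.52 (edgeR adjusted p = 0.000293) was -0.24 without WT replicates 1 and 4 (edgeR adjusted p = 0.434), and its call was lost without WT replicate 4. For Dis3, the catalytic exosome subunit, the pair of values was -0.50 and -0.08, for Zic5, a factor of primed pluripotency, -0.44 and -0.16, and for Rb1, the retinoblastoma protein, -0.49 and -0.02. These 3 also lost their call without WT replicate 1 and without WT replicate 4 (largest edgeR adjusted p = 0.33), and Rb1 without AID-Yeats2 replicate 3 or AID-Zzz3 replicate 3.

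**Figure D4:**
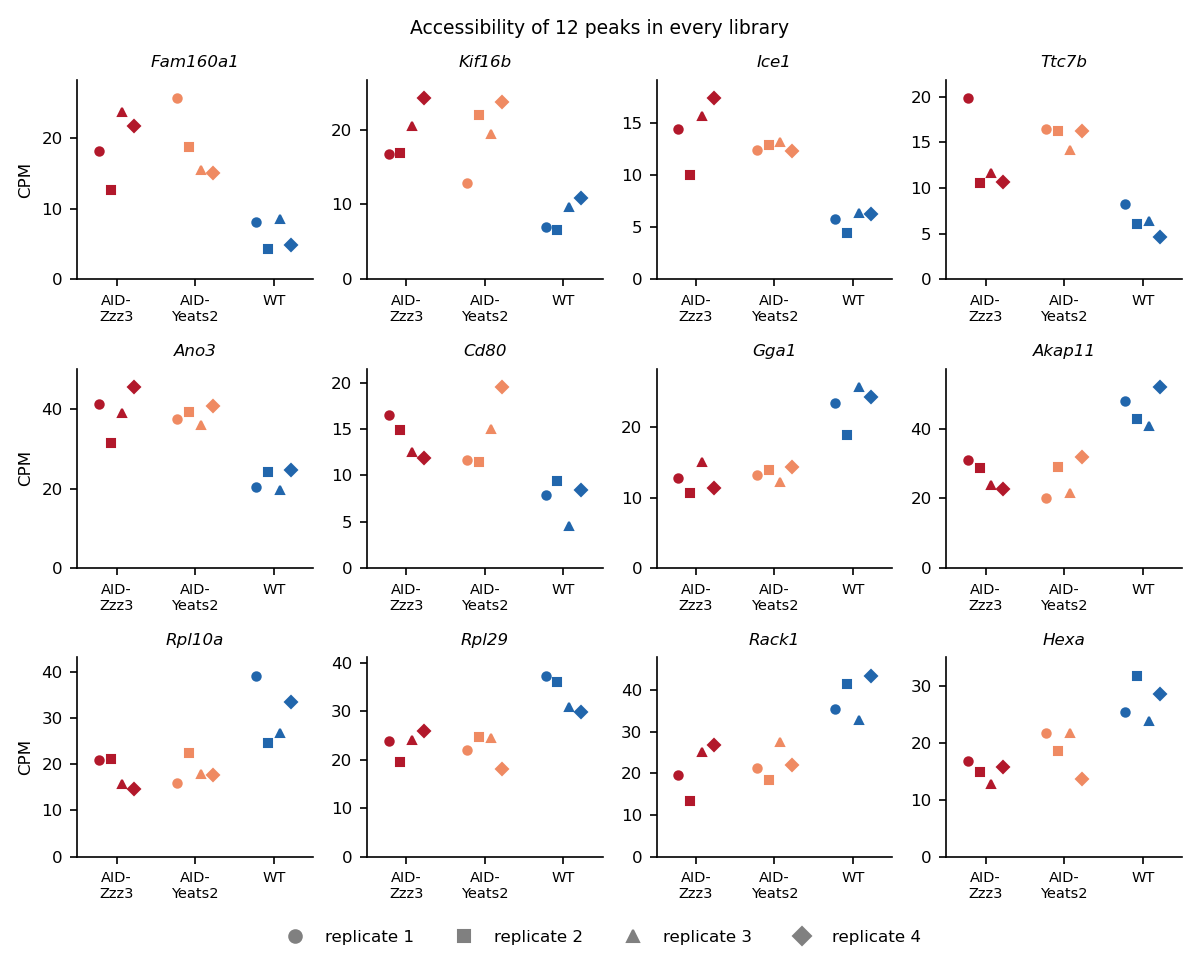
Accessibility of 12 named peaks in every library, in CPM on axes that start at 0. Marker shape gives the replicate number. The first 6 peaks were higher in the AID lines and the last 6 lower. In all 12 the AID libraries lie on 1 side of all WT libraries. For all but Rpl29 and Hexa the rule that chose the peak required this, so it is no separate result.

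Away from promoters 8 losses were chosen by the same rule. A peak at the 3' end of a transcript, 1930 bp from the TSS of Rack1 (chr11:48806552-48808204), a scaffold protein of the small ribosomal subunit, had 19.5, 13.4, 25.0 and 26.7 CPM in AID-Zzz3 and 21.2, 18.5, 27.4 and 21.9 CPM in AID-Yeats2, against 35.3, 41.4, 32.9 and 43.4 CPM in WT. No AID library reached the WT range, as the rule required. The log2 change was -0.83 ± 0.13 (edgeR adjusted p = 9.77e-06), and it was -0.79 with WT replicates 2 and 3 alone (edgeR adjusted p = 0.00851). The peaks nearest to Rpl36 (1211 bp upstream of the TSS) and Rps24 (9557 bp away), both ribosomal protein genes, changed by -0.70 and -0.69. Rps24 lost its call without WT replicate 1 (edgeR adjusted p = 0.109). The others were Lrch1 (-0.88) and Zfp395 (-0.69), both in the chromosome 14 segment, Lad1 (-0.76), Sik1, a salt-inducible kinase (-0.75), and Col8a2, a collagen (-0.68). Without WT replicate 1 the calls of Sik1, Zfp395 and Col8a2 were lost, and without WT replicate 4 those of Lad1, Zfp395 and Col8a2. Zfp395 and Col8a2 also lost theirs without AID-Yeats2 replicate 2 or AID-Zzz3 replicate 4 (largest edgeR adjusted p over these fits = 0.247). Lrch1 and Zfp395 had log2 changes of -0.69 and -0.60 with WT replicates 2 and 3 alone and were not called (edgeR adjusted p = 0.102 and 0.323). Rpl36, Rps24, Lad1, Sik1 and Col8a2 had -0.53, -0.61, -0.74, -0.69 and -0.49 there. They were not called either (edgeR adjusted p = 0.103 to 0.469).

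Promoters of cytoplasmic ribosomal proteins had the lowest median of the gene lists. Of 74 measured genes of 84, 0 were higher and 11 lower (14.9%), against 1.07% higher and 4.56% lower of all 15546 promoters, and the median log2 change was -0.24, against -0.12 for all promoters. The median was -0.18 to -0.30 over all scalings and subsets of libraries tried, and 71 of 74 values were below 0. Among the 11 were Rpl10a, Rpl29, Rps6, Rpl17, Rpl5, Rps15, Rps21, Rps2, Rpl23 and Rpl27, at -0.37 to -0.76. Rpl10a (chr17:28328030-28329346) had 20.8, 21.2, 15.6 and 14.6 CPM in AID-Zzz3 and 16.02, 22.4, 17.9 and 17.7 CPM in AID-Yeats2, against 39.3, 24.5, 26.9 and 33.5 CPM in WT. All AID libraries were below WT, as the rule that chose this peak required. The log2 change was -0.76 ± 0.14 (edgeR adjusted p = 0.000175). Rpl29 had 18.0 to 26.0 CPM in AID libraries (median 24.0) and 29.9 to 37.4 CPM in WT (-0.55 ± 0.12, edgeR adjusted p = 0.00425). With WT replicates 2 and 3 alone the list median was -0.22, and Rpl10a and Rpl29 had log2 changes of -0.50 and -0.54 and were not called (edgeR adjusted p = 0.229 and 0.11). The count of 11 was 6 without WT replicate 1, 7 without WT replicate 4 and 7 without AID-Yeats2 replicate 2.

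In the other lists of basic cell functions no promoter was called higher, and the share called lower was above the 4.56% of all promoters in some lists and near it in others. Among mRNA splicing and decay factors 0 were higher and 9 lower of 75 (12%, median -0.18), led by Dis3, Zcchc8 and Snrnp70. Zcchc8 (chr5:123720535-123721343), a subunit of the nuclear exosome targeting complex, had 27.6, 20.0, 22.5 and 16.6 CPM in AID-Zzz3 and 20.0, 12.4, 11.2 and 12.9 CPM in AID-Yeats2, against 25.0, 28.7, 25.4 and 28.5 CPM in WT. AID-Zzz3 replicate 1 lay in the WT range, and the log2 change was -0.65 ± 0.14 (edgeR adjusted p = 0.0031). It had the widest gap between the lines of all named peaks, -0.97 in AID-Yeats2 and -0.33 in AID-Zzz3, and that difference did not pass the test (edgeR adjusted p = 0.531). The count of 9 was 1 without WT replicate 4 and 3 without WT replicate 1 or WT replicate 3. Among cell cycle genes 0 were higher and 6 lower of 39 (15.4%, median -0.20): Wee1, the kinase that restrains mitosis, Cdc25a, Rb1, Mcm7, E2f2 and Cdkn2a. Wee1 had 39.9 to 50.2 CPM in AID libraries (median 45.5) and 55.9 to 64.6 CPM in WT (-0.45 ± 0.10, edgeR adjusted p = 0.00196). The count of 6 was 1 without WT replicate 1 or WT replicate 4, and 3 without AID-Yeats2 replicate 2 or AID-Zzz3 replicate 3. Zcchc8, Snrnp70, Wee1 and Cdc25a had log2 changes of -0.66, -0.59, -0.36 and -0.30 with WT replicates 2 and 3 alone, where no gene of either list was called. Dis3 and Rb1, which lie in the segment of chromosome 14, had only -0.08 and -0.02 there. With all WT libraries DESeq2 called neither of these 2 (DESeq2 adjusted p = 0.163 and 0.0899).

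Among lysosome and autophagy genes 0 were higher and 4 lower of 30 (13.3%, median -0.20): Hexa, a lysosomal hexosaminidase subunit, and Atg16l1, Wipi2 and Wipi1, which act in autophagosome formation. Hexa (chr9:59539147-59540155) had 16.8, 14.9, 12.8 and 15.6 CPM in AID-Zzz3 and 21.6, 18.5, 21.7 and 13.5 CPM in AID-Yeats2, against 25.4, 31.8, 23.8 and 28.5 CPM in WT. The groups were apart, and the log2 change was -0.70 ± 0.14 (edgeR adjusted p = 0.00115) and -0.71 with WT replicates 2 and 3 alone (edgeR adjusted p = 0.0478). Without WT replicate 3 the count of 4 was 1, and without WT replicate 4 it was 2. With WT replicates 2 and 3 alone it was 1. Aminoacyl-tRNA synthetases, which load tRNAs with amino acids, had 0 higher and 3 lower of 33 (9.09%; Ears2, Vars and Iars2; median -0.18). In the next 4 lists the share called lower was near the 4.56% of all promoters. Ribosome biogenesis factors had 0 higher and 3 lower of 62 (4.84%; Mrto4, Wdr12 and Utp14a; median -0.18), and mitochondrial ribosomal proteins 0 higher and 2 lower of 56 (3.57%; Mrpl33 and Mrpl9; median -0.15). TFIID and Mediator subunits had 0 higher and 2 lower of 40 (5%; Med26 and Cdk19; median -0.23), and factors of small nuclear RNA transcription 0 higher and 1 lower of 23 (4.35%; Ell; median -0.17). Each of these 11 genes lost its call when at least 1 library was left out. For Ears2 and Med26 it was WT replicate 4 (edgeR adjusted p = 0.0838 and 0.0534), and for Vars and Mrto4 WT replicate 1 (edgeR adjusted p = 0.0838 and 0.0718). For the other 7 it was WT replicate 4 and several more libraries (largest edgeR adjusted p = 0.277). None of the 11 was called with WT replicates 2 and 3 alone, and all were below 0, from -0.84 for Mrpl33 (-0.70 with all WT libraries) to -0.23 for Mrpl9 (-0.42).

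**Figure D5:**
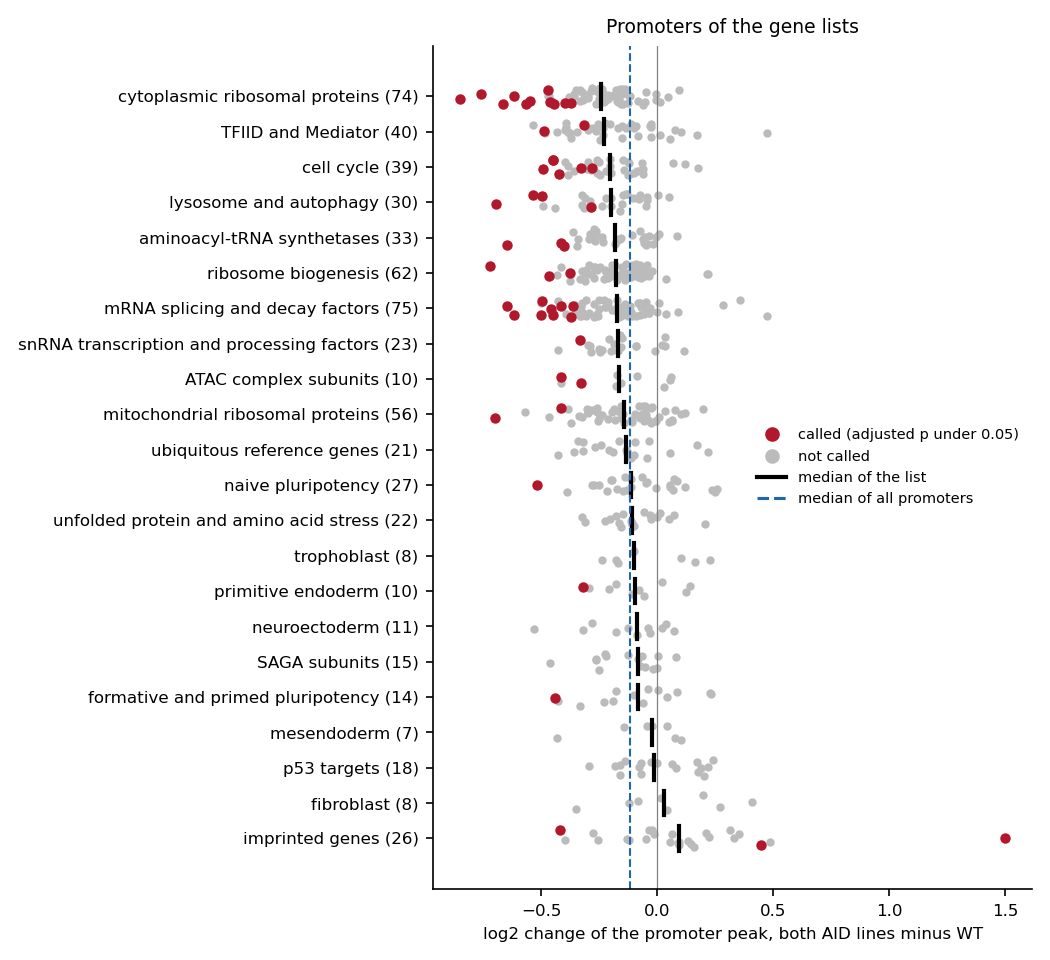
Log2 change of promoter accessibility in both AID lines against WT for the members of each gene list with at least 5 measured genes (number in parentheses). Each point is 1 gene's promoter peak, red where it was called; black bars are list medians and the dashed line is the median of all promoters at -0.12. Cytoplasmic ribosomal proteins have the lowest median, -0.24, and imprinted genes the highest, 0.09.

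Of 10 measured ATAC subunit promoters 0 were higher and 2 lower, Zzz3 and Tada3 (20%, against 4.56% of all promoters). The Zzz3 promoter peak at chr3:152396202-152396818 had 24.9, 36.6, 26.2 and 30.3 CPM in AID-Zzz3 and 41.6, 24.1, 29.4 and 33.7 CPM in AID-Yeats2, against 45.1, 35.0, 45.4 and 37.2 CPM in WT. The groups overlapped, the log2 change was -0.42 ± 0.12 (edgeR adjusted p = 0.0269), and the call was lost when any of 6 libraries was left out, AID-Zzz3 replicates 1 and 3, AID-Yeats2 replicate 2 and WT replicates 1, 3 and 4 (largest edgeR adjusted p = 0.163). Tada3, at -0.33 ± 0.10 (edgeR adjusted p = 0.0348), lost its call without AID-Zzz3 replicates 1 or 4, AID-Yeats2 replicates 2 or 4, or WT replicates 1, 3 or 4 (largest edgeR adjusted p = 0.181). No ATAC subunit was called by DESeq2, with loess offsets, with no block, or with either pair of WT libraries. None of the other 9 peaks nearest to Zzz3 or Yeats2 was called, and the main Yeats2 promoter peak changed by -0.18 ± 0.15 (edgeR adjusted p = 0.553). These peaks do not check the labels, since the degron acts on the protein. Of 15 SAGA subunits none was called, with a median of -0.08. Of 18 p53 targets, 22 genes of the unfolded protein and amino acid stress responses, 21 ubiquitous reference genes and the 1 measured gene of the 2-cell-like list none was called either.

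Lists of pluripotency and early lineage genes had 0 or 1 called promoter each, too few to set apart from the 4.56% lower and 1.07% higher of all promoters. The naive list had 0 higher and 1 lower of 27 (3.7%; Klf5, described above; median -0.11) and the formative and primed list 0 higher and 1 lower of 14 (7.14%; Zic5; median -0.08). Primitive endoderm had 0 higher and 1 lower of 10 (10%), Lama1, a laminin chain (-0.32 ± 0.10, edgeR adjusted p = 0.0447), whose call was lost in 9 of the 12 fits that left out 1 library (largest edgeR adjusted p = 0.171). No gene of the trophoblast (8), mesendoderm (7), neuroectoderm (11) and fibroblast (8) lists was called. Imprinted genes had a median of 0.09 (-0.00 in AID-Zzz3 and 0.15 in AID-Yeats2), with 2 higher and 1 lower of 26, and the pooled median was -0.01 with replicates 3 and 4 alone and with WT replicates 2 and 3 alone. The promoter of Peg13 (chr15:72809120-72810854), a noncoding RNA expressed from the paternal allele, had 58.5, 5.85, 62.6 and 12.1 CPM in AID-Zzz3 and 27.6, 22.4, 28.2 and 18.9 CPM in AID-Yeats2, against 7.89, 11.9, 9.99 and 10.9 CPM in WT. AID-Zzz3 replicates 1 and 3 were far above the others of their line, and replicate 2 was below every WT library. The log2 change was 1.50 ± 0.24 (edgeR adjusted p = 1.99e-05), and DESeq2 did not call it (adjusted p = 0.122). Magel2, an imprinted gene of the Prader-Willi region, rose by 0.45 ± 0.13 (edgeR adjusted p = 0.0312), and Inpp5f, an inositol phosphatase gene with an imprinted transcript, fell by 0.42 on the log2 scale (edgeR adjusted p = 0.0111). Both calls were lost without WT replicate 3 or WT replicate 4 (largest edgeR adjusted p = 0.197 and 0.0736), and that of Magel2 also without WT replicate 1, AID-Yeats2 replicate 2, AID-Zzz3 replicate 3 or AID-Zzz3 replicate 4.

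Between AID-Yeats2 and AID-Zzz3 the smallest edgeR adjusted p among the 62 called named peaks was 0.531. Of the 62, 30 kept their call in each of the 12 fits that left out 1 library. All 62 kept their direction with WT replicates 2 and 3 alone, 14 kept the call and Dis3, Klf5, Zic5 and Rb1 had the smallest remaining share of their change.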

How the data were processed

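ATAC-seq counts of 12 of 16 libraries were analysed, grouped by their labels. Per the submitters' processing notes, the authors used bcl2fastq 2.17.1.14, Bowtie2 2.2.6 and MACS2 2.1.1.20160309 on mm10, HOMER, bedtools 2.26.0 and DESeq2 1.16.1. The deposited table holds raw counts per library over 1 merged peak list, and its TSS distances and annotations are those of HOMER, per the file headers. Another 16 per-library columns, a rescaled copy, were not used. Peaks with few counts (669) were removed with filterByExpr. The rest were scaled by TMM and tested in edgeR 4.0.16 (limma 3.58.1, R 4.3.3) with quasi-likelihood F tests, both AID lines at weight 0.5 and a term for replicates 1-2 against 3-4, and p was adjusted over all tested peaks. CPM are TMM-scaled, log2 levels per library used a prior count of 2, and starts are counted from 1.

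Promoters lay within 1000 bp of a TSS, and a gene's highest promoter peak stood for it in 23 lists (784 genes, 626 measured). Named peaks were those at Zzz3 and Yeats2, the 8 largest changes in each of 4 classes (promoter or other, higher or lower) among called peaks above the median level without overlap of libraries, leaving out predicted genes, and up to 3 called members of each list by adjusted p. Some named peaks are not reported here. Members, lists and rules were chosen with earlier results of these data known. Replicate numbers did not pair samples: of 12 correlations between same-numbered libraries of different groups (0.0307 to 0.112), 1 was over 0.1. The code was tested on simulated data. Alternatives were other blocks, scalings, filters and promoter windows, DESeq2 1.42.0, and subsets of libraries. Those with 2 of the 4 WT libraries, and centring on all 12 libraries, were chosen after seeing the data.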

Additional observations from a re-analysis of the deposited data

Results flagged for a closer look

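In 8 of 186 groups of 4 libraries looked at among the named peaks, 1 library lay far from the other 3 (its gap to the nearest, as a share of the group's range, was over the 95% critical value of Dixon). Chance marks about 1 group in 20. Col8a2 in AID-Yeats2 had a high library at 12.2 CPM, as did Wipi2 (30.4 CPM) and Utp14a (20.7 CPM) in AID-Yeats2, which lay toward the WT level. Ttc7b had a high library at 19.8 CPM in AID-Zzz3 and a low one at 14.2 CPM in AID-Yeats2. In WT, Mrto4 (25.6 CPM) and Ears2 (80.4 CPM) had a high library, and Wipi2 a low one (29.0 CPM).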

How the results depend on the processing

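The shift of promoters against other peaks kept its sign in every setting tried (-0.180 to -0.104). With replicates 1 and 2 alone it was -0.124, and with replicates 3 and 4 alone -0.180, each at the smallest exact permutation p that 15 arrangements allow (0.0667). The counts of called peaks moved more. Replicates 1 and 2 alone gave 22 higher and 15 lower peaks, replicates 3 and 4 alone 306 and 293, and WT replicates 2 and 3 as the only WT libraries 167 and 52. Lower peaks numbered 633 with no replicate block, 622 with loess offsets, 2302 with TMM factors from non-promoter peaks and 679 in DESeq2, where 13471 peaks had no adjusted p. A replicate block of 4 numbers gave 1370 higher and 1037 lower peaks. Leaving out 1 library gave 572 to 1575 higher and 252 to 1180 lower peaks. The subsets also held fewer libraries, and the cause of these changes was not tested.

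The AID libraries held fewer counts than most WT libraries, which limits small peaks most. The WT group consists of 2 pairs of libraries that differ on chromosomes 14 and 17, so the spread within WT is not that of like samples. These 2 pairs cut across the replicate sets, since each pair holds a library of either set. No clone or day is known for any library, so the part of clone and day in the results was not tested.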

Other observations

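Called peaks were spread over many genes: 2331 genes had at least 1 as their nearest gene, and 20 had 3 or more. Of the 20, 5 lie in the segment of chromosome 14 and 5 in that of chromosome 17. The genes below were chosen from the other 10 after their values were seen. Wnt2, a secreted signalling protein, had 3 of 4 tested peaks higher, at 1.74 ± 0.34, 1.26 ± 0.27 and 0.35 ± 0.11. Trim32, a ubiquitin ligase, had 3 of 8 higher, at 0.59 ± 0.14, 0.38 ± 0.11 and 0.62 ± 0.19. Both directions occurred at 18 genes, and at 11 a promoter peak was lower while another peak of the gene was higher.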
